A study of Mus musculus with 6 samples.

Results

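The 4 Fos and 3 Jun genes, the related bZIP gene Atf3, and the immediate early genes Egr1 and Ier2 form the set of 10 described here. The rows were found by matching these 10 symbols to the 24749 Ensembl gene identifiers of the table (build GRCm38), and each symbol matched 1 row. Knockout kidneys carried a Foxd1-driven Cre and loxP-flanked alleles of Yap (Yap1) and of Taz (Wwtr1). The labels write this genotype as Foxd1cre; Yapc/c;Tazc/c. The controls were wild-type, Cre-negative kidneys. All 6 kidney samples, 3 of each genotype, were collected at E15.5 (embryonic day) on a mixed strain. Cre acts only in the Foxd1 lineage, which gives rise to the kidney stroma, so other cells of a knockout kidney keep both genes. RNA came from whole dissected kidneys, in which fewer cells of a type and less RNA per cell cannot be told apart. The labels do not say whether control animals carried floxed alleles, how many embryos went into a library or whether litters differed. A p-value here thus rests only on the scatter among 3 libraries a group, some of which may be technical.

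AP-1 is a transcription factor made of a pair of bZIP proteins (a basic DNA-binding region followed by a leucine zipper). Jun proteins can pair with each other, while Fos proteins need a Jun-type partner, and the resulting dimers bind the sequence TGANTCA. Fos, Jun, Egr1 and Ier2 are immediate early genes, whose transcripts appear quickly after growth factors, stretch or stress, without new protein synthesis, and decay quickly. At enhancers of cultured cells, AP-1 is known to occupy many of the sites that YAP and TAZ reach through TEAD proteins. Tissue dissection and dissociation also induce immediate early genes.

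The 6 libraries were alike in size. The approximate depth was 12700000 to 15500000 fragments per library, at which 1 fragment on a transcript of 2 kb is worth 0.0322 to 0.0392 FPKM (fragments per kilobase, corrected for library depth). Wwtr1 averaged 12.9 ± 0.635 FPKM in knockout and 18.8 ± 1.26 FPKM in wild-type kidneys (SD, n = 3 each; log2 change -0.51, limma adjusted p = 0.0235). Yap1 averaged 45.4 ± 2.94 FPKM in knockout and 51.0 ± 4.95 FPKM in wild-type kidneys (SD, n = 3 each; limma adjusted p = 0.378). Stroma markers summed to 424 to 454 FPKM in knockout and 542 to 609 FPKM in wild-type libraries, and smooth muscle and pericyte markers to 106 to 116 FPKM in knockout and 147 to 156 FPKM in wild-type libraries. Every marker of those 16 was above 0 in at least 1 library. Col3a1 alone averaged 178 ± 9.61 FPKM in knockout and 275 ± 28.4 FPKM in wild-type kidneys (SD, n = 3 each), so it weighs heavily in the stroma sum.

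Sequence upstream of 3 genes is shown to set the genes with the largest differences that have a promoter entry (Jun and Fosl2) beside Fos, whose log2 change was near 0. RefSeq promoter windows (GRCm38.p6), from 250 bases before to 50 bases after the annotated start, were given for 7 of the 10 genes, all but Fosl1, Egr1 and Ier2. The Jund window (chromosome 8, 70697489 to 70697788) ends before the Jund gene model used here begins (70698949), so it may not hold the Jund promoter. Each window was searched on both strands for the AP-1 site TGANTCA and for its ATF-type variant TGACNTCA. The search also took in the core cAMP response element TGACGT, which overlaps the ATF-type variant where N is G, and the core of the TEAD motif, GGAATG. Further motifs were the CArG box bound by serum response factor, the CCAAT box (CCAAT) and the TATA box, searched as TATAAA. Capitals mark every match, read in the direction of the gene.
Jun (chr4:95052173-95052472, minus strand): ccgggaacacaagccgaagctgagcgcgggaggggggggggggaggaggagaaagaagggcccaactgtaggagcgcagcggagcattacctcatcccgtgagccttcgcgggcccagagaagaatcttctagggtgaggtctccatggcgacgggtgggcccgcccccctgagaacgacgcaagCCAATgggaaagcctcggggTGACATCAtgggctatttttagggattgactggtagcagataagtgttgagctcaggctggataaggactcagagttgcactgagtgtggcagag
Fosl2 (chr5:32136222-32136521, plus strand): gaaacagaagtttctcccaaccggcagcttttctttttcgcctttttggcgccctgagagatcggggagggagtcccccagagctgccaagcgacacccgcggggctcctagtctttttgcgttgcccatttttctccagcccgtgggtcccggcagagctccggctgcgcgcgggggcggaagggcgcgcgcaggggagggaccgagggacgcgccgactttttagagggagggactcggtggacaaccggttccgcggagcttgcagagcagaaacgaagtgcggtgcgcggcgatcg
Fos (chr12:85473640-85473939, plus strand): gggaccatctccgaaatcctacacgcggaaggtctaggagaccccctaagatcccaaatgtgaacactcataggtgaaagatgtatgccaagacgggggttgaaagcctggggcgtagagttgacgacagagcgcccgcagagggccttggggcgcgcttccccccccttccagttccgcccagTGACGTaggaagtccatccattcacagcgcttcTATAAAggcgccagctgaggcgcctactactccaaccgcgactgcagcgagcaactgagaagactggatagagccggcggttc
In the Jun window the ATF-type variant of the AP-1 site, TGACATCA, begins 45 bases before the start, with a CCAAT box 65 bases before it. The Fos window holds a core cAMP response element 66 bases and a TATA box 33 bases before the start, and the Fosl2 window holds no match. Among the 7 genes, the ATF-type site was found for Jun, the core cAMP response element for Fos and Atf3, the CCAAT box for Jun, Junb and Atf3, and the TATA box for Fos and Junb. The AP-1 site, the TEAD core and the CArG box were found in 0 of the 7 windows, of which the Jund window does not reach the gene model. Of all 32851 promoter windows, 7.81% hold the AP-1 site, 8.83% the ATF-type site and 7.51% the core cAMP response element. The TEAD core is found in 14.7% of them, the CArG box in 1.63%, the CCAAT box in 37.4% and the TATA box in 13.6%. These are matches of letters in a short window, not measured binding sites. Sequence more than 250 bases before a start was not searched, nor were Fosl1, Egr1 and Ier2, so 0 matches do not mean that a gene lacks a site.

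The knockout mean was above the wild-type mean for 6 of the 10 genes and below it for Fos, Fosb, Fosl1 and Atf3, and no gene of the set passed the test. The test took in the 16899 genes that averaged 0.5 FPKM or more over the 6 libraries, among them 8 members. In limma, 0 of these 8 had a Benjamini-Hochberg adjusted p under 0.05, against 0.734% of all genes tested (0.13% higher and 0.604% lower in knockout kidneys). At an unadjusted p under 0.05, 3 members (Jun, Ier2 and Fosl2) were higher in knockout kidneys and 0 were lower, against 9.14% and 6.94% of all genes, or 16.1% in both directions. For 4 members (those 3 and Egr1) every knockout library lay above every wild-type library, against 12.5% of all genes, and for 0 members below it, against 11.8% (24.3% in either direction). The log2 change on the log2(FPKM + 1) scale, knockout minus wild-type, was above 0 for 7 of the 8 (49.6% of all genes), and its median was 0.27 over the 8 members and -0.002 over all genes tested. Fosb and Fosl1 were below the minimum level and were not tested. The choice of these genes was made with earlier results of the same data known.

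**Figure D1:**
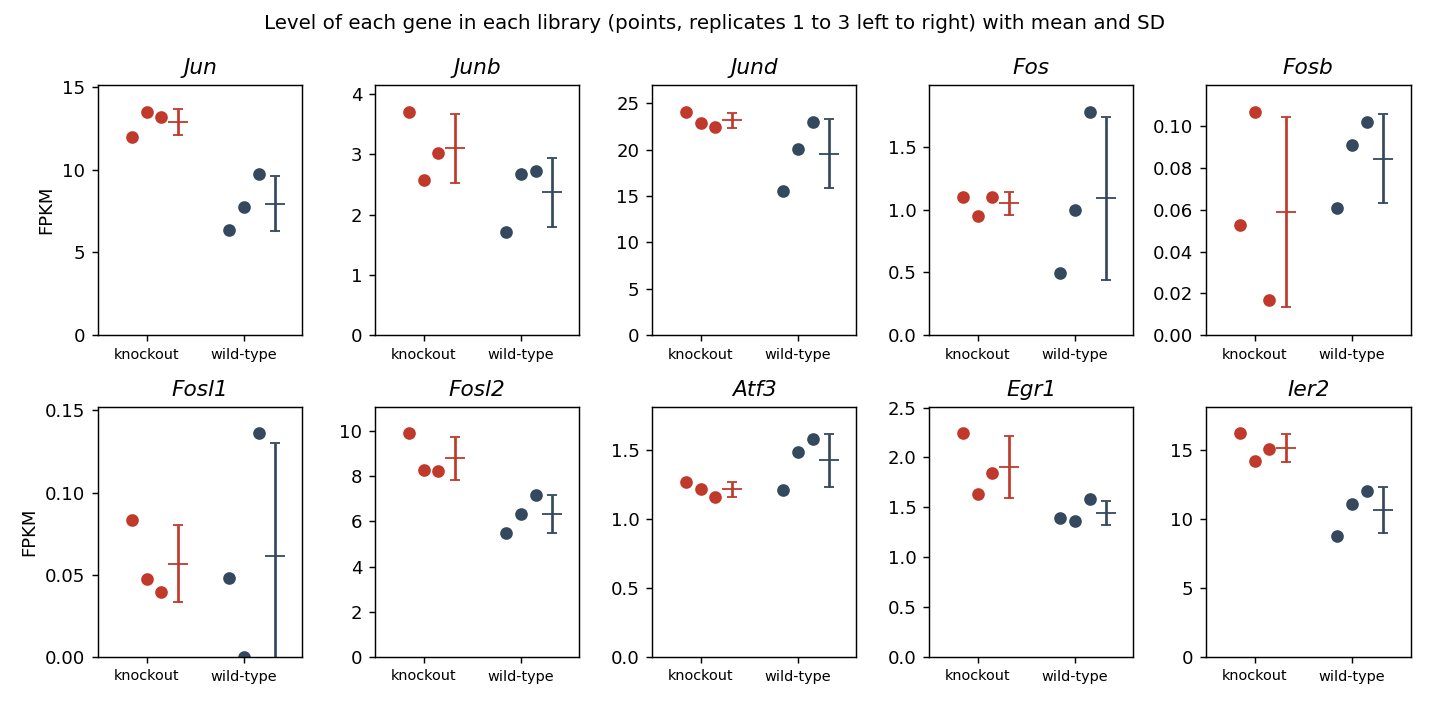
FPKM of each of the 10 genes (vertical axes, from 0) in the 3 knockout libraries (red) and the 3 wild-type libraries (blue-grey), as points for replicates 1 to 3, with the mean and SD beside them (SD bars stop at 0). Knockout points lie above all wild-type points for Jun, Ier2, Fosl2 and Egr1, and Fosb and Fosl1 are near 0 in both genotypes.

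Among the Jun genes, Jun differed most. Jun (chromosome 4, 95049034 to 95052222, minus strand, ENSMUSG00000052684), a strong activator and the founding member of the family, is encoded in 1 exon. It measured 12.0, 13.5 and 13.2 FPKM in knockout libraries 1, 2 and 3, against 6.38, 7.73 and 9.72 FPKM in wild-type libraries 1, 2 and 3. The lowest knockout library lay above the highest wild-type library, and knockout kidneys averaged 163% of wild type. The log2 change was 0.65 (SE 0.13, 95% confidence interval 0.34 to 0.96) and did not pass the test over all genes (limma adjusted p = 0.0894). The exact two-sided permutation p was 0.1, the smallest that 3 against 3 libraries allow. Without wild-type library 3, the wild-type library nearest to the knockout libraries, Jun passed the test (log2 change 0.79, limma adjusted p = 0.0257). Over all alternatives its log2 change lay between 0.52 and 0.79 and its adjusted p between 0.0257 and 0.309.

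Junb and Jund differed less, with overlapping groups. Jund (chromosome 8, 70698949 to 70700616, plus strand, ENSMUSG00000071076), known as the constitutive member of the family, was the most abundant of the 10 genes, at 24.1, 22.9 and 22.5 FPKM in knockout libraries and 15.6, 20.1 and 23.0 FPKM in wild-type libraries. Wild-type library 3 lay within the knockout range, and the log2 change of 0.25 (95% confidence interval -0.05 to 0.55) was not called (limma adjusted p = 0.391). Junb (chromosome 8, 84974484 to 84978718, minus strand, ENSMUSG00000052837), a weaker activator that can hold Jun in check, measured 3.71, 2.57 and 3.03 FPKM in knockout libraries and 1.71, 2.68 and 2.72 FPKM in wild-type libraries. Only wild-type library 1 lay below every knockout library, and the log2 change of 0.29 (95% confidence interval -0.08 to 0.66) was not called (limma adjusted p = 0.409). Without wild-type library 1 the log2 change was 0.14 for Junb and 0.10 for Jund. Exons of Jun overlap the antisense gene Junos, exons of Jund overlap the antisense model Gm11175, and exons of Junb overlap the abundant gene Prdx2 on the other strand. The labels do not say whether the library kit kept strand, so reads of such pairs may not be separable. Junos averaged 1.68 ± 0.991 FPKM in knockout and 1.87 ± 0.42 FPKM in wild-type kidneys, and Prdx2 286 ± 26.4 FPKM in knockout and 264 ± 2.4 FPKM in wild-type kidneys (SD, n = 3 each).

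Since FPKM values are per length, levels can be added within a family. The 3 Jun genes together reached 39.8, 39.0 and 38.7 FPKM in knockout libraries, against 23.7, 30.6 and 35.4 FPKM in wild-type libraries. Jund made up 58.0% to 60.5% of this sum in knockout libraries and 64.9% to 65.9% in wild-type libraries. The sums of the genotypes did not overlap, nor did the shares. Among single genes, 24.3% of all genes tested did not overlap in either direction. Junb and Jund overlapped on their own, and neither the sums nor the shares were tested.

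Fosl2 was the most abundant Fos gene in every library. Fosl2 (chromosome 5, 32135801 to 32157842, plus strand, ENSMUSG00000029135), which encodes Fra-2, a Fos relative that lacks a strong activation domain, measured 9.90, 8.27 and 8.24 FPKM in knockout libraries, against 5.48, 6.33 and 7.16 FPKM in wild-type libraries. All knockout libraries lay above all wild-type libraries, at 139% of the wild-type mean. The log2 change of 0.42 (SE 0.11, 95% confidence interval 0.16 to 0.68) did not pass the test (limma adjusted p = 0.157, between 0.0889 and 0.345 over the alternatives).

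Fos (chromosome 12, 85473890 to 85477273, plus strand, ENSMUSG00000021250), the classical immediate early partner of Jun, was low in all libraries. It measured 1.10, 0.947 and 1.10 FPKM in knockout libraries, against 0.496, 0.994 and 1.78 FPKM in wild-type libraries. The lowest and the highest value both came from wild-type libraries, and all knockout libraries lay between them. These levels stand for about 13 to 50 fragments per library. The log2 change of 0.02 had a 95% confidence interval from -0.48 to 0.51 (limma adjusted p = 0.978). On the log2(FPKM + 1) scale that leaves room for changes in either direction of about the size seen for Fosl2 or Ier2. The added 1 shrinks changes of a gene near 1 FPKM more than those of Fosl2 or Ier2, so the room in FPKM is wider.

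Fosb (chromosome 7, 19302696 to 19310051, minus strand, ENSMUSG00000003545) and Fosl1 (chromosome 19, 5447547 to 5455946, plus strand, ENSMUSG00000024912), which encodes Fra-1, were near the limit of detection. Fosb lay between 0.0166 and 0.107 FPKM in knockout libraries and between 0.0607 and 0.102 FPKM in wild-type libraries, about 1 to 5 fragments. Fosl1 lay between 0.0393 and 0.0833 FPKM in knockout libraries, and in wild-type libraries it was listed at 0 in library 2 and reached 0.136 FPKM in library 3, about 0 to 3 fragments. A difference in either gene was not detectable at this depth. Exons of Fosl1 overlap Ccdc85b on the other strand, at 6.64 ± 0.343 FPKM in knockout and 6.55 ± 0.775 FPKM in wild-type kidneys (SD, n = 3 each). The 4 Fos genes summed to 11.1, 9.37 and 9.39 FPKM in knockout libraries and 6.08, 7.42 and 9.18 FPKM in wild-type libraries. Fosl2 made up 87.7% to 88.9% of that sum in knockout libraries and 78.0% to 90.1% in wild-type libraries. The Jun sum was 3.58 to 4.16 times the Fos sum in knockout libraries and 3.86 to 4.12 times in wild-type libraries, so this proportion overlapped between genotypes.

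The remaining 3 members differed in direction. Ier2 (chromosome 8, 84661331 to 84662852, minus strand, ENSMUSG00000053560), an immediate early gene of 1 exon for a nuclear protein outside the bZIP family, measured 16.2, 14.2 and 15.1 FPKM in knockout libraries, against 8.79, 11.1 and 12.0 FPKM in wild-type libraries. All knockout libraries were above all wild-type libraries, at 143% of the wild-type mean, and the log2 change was 0.49 (SE 0.11, 95% confidence interval 0.23 to 0.74; limma adjusted p = 0.118, between 0.0699 and 0.311 over the alternatives). Egr1 (chromosome 18, 34859823 to 34864984, plus strand, ENSMUSG00000038418), a zinc finger factor induced together with Fos, measured 2.24, 1.63 and 1.84 FPKM in knockout libraries, against 1.39, 1.36 and 1.58 FPKM in wild-type libraries. The groups lay close, with 1.63 FPKM in knockout library 2 against 1.58 FPKM in wild-type library 3, and the log2 change of 0.24 (95% confidence interval -0.01 to 0.50) was not called (limma adjusted p = 0.331). Without knockout library 1, the highest, the log2 change was 0.16.

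Atf3 (chromosome 1, 191170296 to 191218039, minus strand, ENSMUSG00000026628), a stress-induced bZIP factor that often acts as a repressor, was the 1 tested member with a log2 change below 0. It measured 1.27, 1.22 and 1.16 FPKM in knockout libraries, against 1.21, 1.49 and 1.58 FPKM in wild-type libraries. Wild-type library 1 lay inside the knockout range, and the log2 change of -0.13 (95% confidence interval -0.36 to 0.10) was not called (limma adjusted p = 0.564). Leaving out 1 library gave log2 changes between -0.19 (without wild-type library 1) and -0.08 (without wild-type library 3).

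**Figure D2:**
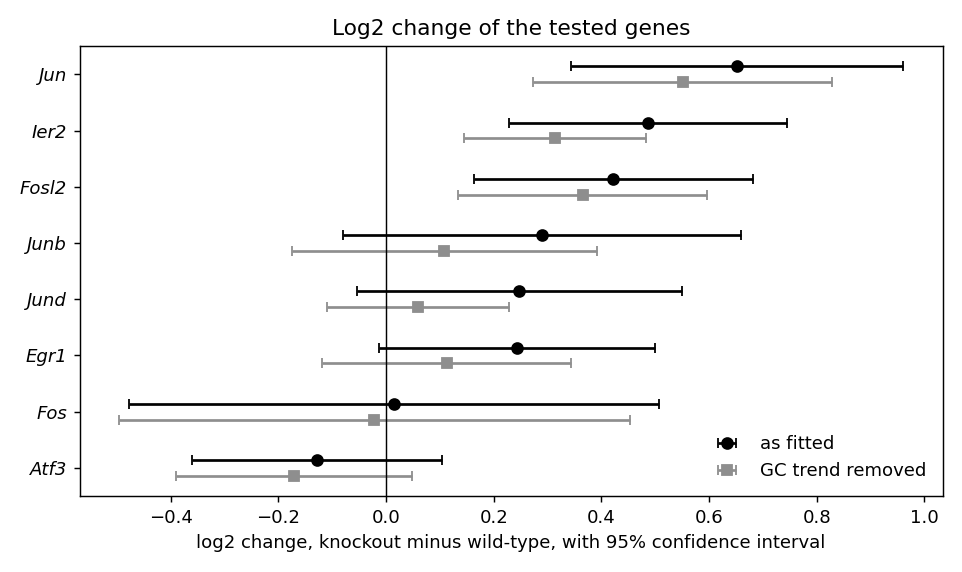
Log2 change of the 8 tested genes, knockout minus wild-type on the log2(FPKM + 1) scale, with 95% confidence intervals, as fitted (black circles) and after the trend of each library with GC content was removed (grey squares). The intervals of Jun, Ier2 and Fosl2 lie above 0 in both fits, at 0.65, 0.49 and 0.42 as fitted and 0.55, 0.31 and 0.37 with the trend removed.

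By level, both genotypes had Jund first, followed by Ier2, Jun, Fosl2, Junb, Egr1, Atf3, Fos, Fosb and Fosl1. In knockout libraries the ranges of neighbours in this order did not overlap, except for Fosb and Fosl1. In wild-type libraries Ier2 and Jun overlapped, as did Jun and Fosl2, Egr1 and Atf3, Atf3 and Fos, and Fosb and Fosl1. The 4 genes at 5 FPKM or more in all libraries thus include 2 of the 3 Jun genes and 1 of the 4 Fos genes.

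Single libraries stood at the ends of the range for most members. Wild-type library 1 held the lowest value of all 6 libraries for 6 of the 8 tested members, against 24.2% of all genes. Wild-type library 3 was the highest wild-type library for 8 of the 8, against 35.0% of all genes. Knockout library 1 was the highest of all 6 for 5 of the 8, against 20.5% of all genes. Averaged over the 8 members, log2(FPKM + 1) minus the gene mean was 0.22, 0.08 and 0.12 in knockout libraries 1, 2 and 3, and -0.37, -0.11 and 0.07 in wild-type libraries 1, 2 and 3, so that wild-type library 3 lay near knockout library 2. Without wild-type library 1, the log2 change was 0.52 for Jun, 0.37 for Ier2 and 0.34 for Fosl2, and without wild-type library 3 it was 0.79, 0.57 and 0.50.

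**Figure D3:**
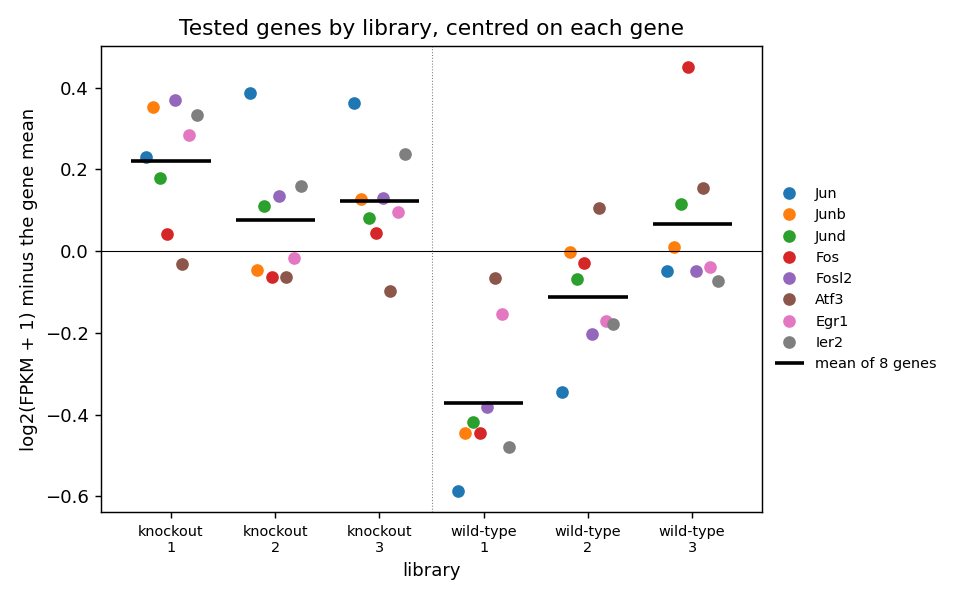
Level of the 8 tested genes in each library as log2(FPKM + 1) minus the mean of the gene over the 6 libraries (vertical axis), with knockout libraries left and wild-type libraries right. Points are genes and black bars their mean, which runs from 0.08 to 0.22 in knockout libraries and from -0.37 to 0.07 in wild-type libraries.

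The tested members share a GC content above the median, and the log2 change varied with GC content across all genes. The longest transcripts of the 8 tested members hold 51.9% (Fos) to 67.1% GC (Jund), and all 8 lie above the median of all genes tested, 49.4%. Across the 10 deciles of GC content, the median log2 change of all genes increased step by step, and was -0.09 in the decile lowest in GC and 0.16 in the decile highest in GC, which holds Junb, Jund and Ier2. In that highest decile the median centred level was 0.13, 0.06 and 0.05 in knockout libraries 1, 2 and 3, and -0.18, -0.06 and -0.01 in wild-type libraries 1, 2 and 3. Knockout library 1 was thus the highest and wild-type library 1 the lowest. Among the 8 members, knockout library 1 was the highest of all 6 for 5, and wild-type library 1 the lowest for 6. For Jun, knockout library 1 was the lowest knockout library (12.0 FPKM). Neither the origin of this trend nor its part in the values of the members was tested.

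When the GC trend of each library was removed, an alternative chosen after seeing the data, Jun, Fosl2 and Ier2 kept the largest log2 changes of the 8 members, at lower values. Jun had a log2 change of 0.55 (limma adjusted p = 0.123), Fosl2 of 0.37 (adjusted p = 0.215) and Ier2 of 0.31 (adjusted p = 0.155). Groups still did not overlap for these 3 genes, against 9.4% of all genes higher in knockout in this fit, and all 3 kept an unadjusted p under 0.05, against 5.9% of all genes higher (6.3% lower) in knockout kidneys. In this fit 0 members were called, against 0.757% of all genes. The groups of Egr1 overlapped (log2 change 0.11), and log2 changes were 0.11 for Junb and 0.06 for Jund. Atf3 had a log2 change of -0.17, with every knockout library below every wild-type library in this fit, against 10.5% of all genes. A log2 change above 0 was left for 6 of the 8. The median of the 8 members was 0.11 in place of 0.27.

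**Figure D4:**
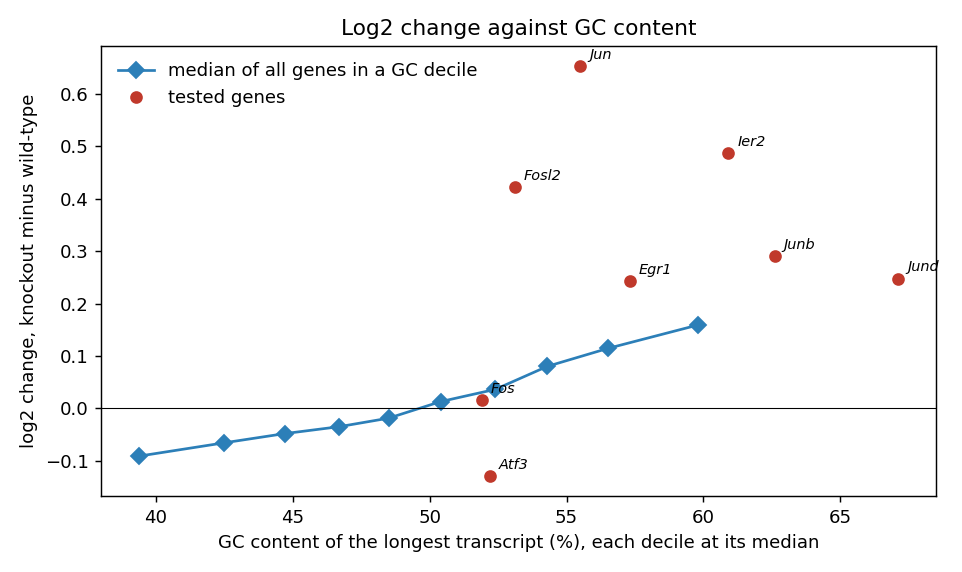
Log2 change (knockout minus wild-type, vertical axis) against the GC content of the longest transcript (percent, horizontal axis) for the 8 tested genes (red, labelled) and as the median of all genes in each decile of GC content (blue diamonds, at the median GC of the decile). The decile medians run from -0.09 to 0.16, and Jun, Fosl2 and Egr1 lie above that line. Ier2, Junb and Jund (60.9% to 67.1% GC) lie to the right of its last point (59.8% GC), at log2 changes of 0.49, 0.29 and 0.25.

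The genes most like the mean profile of the 8 members were Csnk1e, Zbtb7a, Homer3, Pex5, Wdr6 and Nfe2l1. Likeness was the root mean square difference of centred log2(FPKM + 1) over the 6 libraries, among 15492 other genes that averaged 1 FPKM or more, and it was 0.01 for Csnk1e and 0.02 to 0.03 for the others. These 6 genes had GC contents between 54.4% and 60.2%, log2 changes between 0.27 and 0.32 and limma adjusted p-values between 0.239 and 0.335. Among the members themselves Jund was nearest to that mean (0.04), and Atf3 (0.22) and Jun (0.21) were farthest from it.

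Other genes of the pathway showed 0 calls in each list by limma. Among 42 tested members of a list of 47 other immediate early genes, 10 had higher and 2 had lower knockout values (unadjusted p under 0.05), and 14 had knockout libraries above all wild-type libraries. That is 23.8% and 33.3% of the list, against 9.14% and 12.5% of all genes, and the list's median log2 change was 0.08. Ier5, a relative of Ier2, measured 11.2 ± 0.512 FPKM in knockout and 8.27 ± 0.939 FPKM in wild-type kidneys (SD, n = 3 each; log2 change 0.40, limma adjusted p = 0.115). Spry4, a feedback inhibitor of receptor tyrosine kinase signalling, measured 4.82 ± 0.512 FPKM in knockout and 3.37 ± 0.302 FPKM in wild-type kidneys (SD, n = 3 each; log2 change 0.41, limma adjusted p = 0.14). The 2 lower genes were Ccn1 and Ccn2, matricellular genes that are also known targets of YAP and TAZ. Ccn1 averaged 6.47 ± 1.00 FPKM in knockout and 9.27 ± 1.19 FPKM in wild-type kidneys (log2 change -0.46, limma adjusted p = 0.162), and Ccn2, named after its value was seen, 3.53 ± 0.833 FPKM in knockout and 5.30 ± 1.04 FPKM in wild-type kidneys (log2 change -0.48, limma adjusted p = 0.229). With the GC trend removed, the list's counts at an unadjusted p under 0.05 were again 10 and 2, against 5.9% and 6.3% of all genes, and the median was 0.05.

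Of 22 kinases and transcription factors upstream of Fos and Jun, 5 had a log2 change above 0 and an unadjusted p under 0.05, 0 had one below 0, and the median log2 change was 0.04. The 5 are 22.7% of the list, against 9.14% of all genes. With the GC trend removed the counts were 4 and 0, against 5.9% and 6.3% of all genes, and the median was -0.01. The MAP kinase kinase gene Map2k2 had a log2 change of 0.35 and its target Mapk3, which encodes ERK1, of 0.31 (limma adjusted p = 0.153 each), and both had 0.18 with the GC trend removed. Srf, the factor that binds CArG boxes, named after its value was seen, measured 10.5 ± 0.52 FPKM in knockout and 8.59 ± 1.7 FPKM in wild-type kidneys (SD, n = 3 each; log2 change 0.28, or 0.095 with the GC trend removed; limma adjusted p = 0.342). Among 12 tested genes of other bZIP factors that can pair with Fos or Jun proteins, the same p threshold left 2 with higher and 2 with lower knockout values (median 0.02), and 1 and 2 with the GC trend removed. The shares of all genes were 9.14% and 6.94% as fitted, and 5.9% and 6.3% with the GC trend removed. Batf3, which pairs with Jun proteins, averaged 3.05 ± 0.197 FPKM in knockout and 4.54 ± 0.661 FPKM in wild-type kidneys (log2 change -0.45, limma adjusted p = 0.135), and was called lower once the GC trend was removed (log2 change -0.62, adjusted p = 0.0336). Mafg, a small Maf protein, had a log2 change of 0.28 (adjusted p = 0.136).

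Genes known as AP-1 targets in other cells were mixed. The list held 23 genes, of which 15 were tested. Mmp3, Mmp9, Mmp10, Mmp13, Il6, Ccl2, Areg and Fosl1 were below the minimum level. Of the 15, 3 with higher and 2 with lower knockout values had an unadjusted p under 0.05, against 9.14% and 6.94% of all genes. The median log2 change of the 15 was 0.02. With the GC trend removed these counts were 1 and 2, against 5.9% and 6.3% of all genes. In that fit 1 gene had knockout libraries above all wild-type libraries (9.4% of all genes), in place of 4 as fitted (12.5% of all genes). Vim, the vimentin gene of mesenchymal cells, averaged 209 ± 4.68 FPKM in knockout and 254 ± 12.9 FPKM in wild-type kidneys (log2 change -0.28, limma adjusted p = 0.0975). Tgfb1 averaged 2.44 ± 0.328 FPKM in knockout and 1.56 ± 0.278 FPKM in wild-type kidneys (log2 change 0.43, limma adjusted p = 0.178). A list of YAP and TAZ genes held 7 tested targets and the 4 TEAD genes, which encode the DNA-binding partners of YAP and TAZ and are not targets. Of the 7 targets, 0 with a higher and 5 with a lower knockout value had an unadjusted p under 0.05, with a median log2 change of -0.26, against 6.94% of all genes. Among the TEAD genes 1 passed that p with a higher value, Tead2 (log2 change 0.31), named here after seeing its value. Lats2, a Hippo pathway kinase, had a log2 change of -0.30 (adjusted p = 0.129).

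Heat shock and stress genes, which also respond to dissection, lay around 0. Of 16 tested, an unadjusted p under 0.05 was found for 1 above and 1 below wild type, against 9.14% and 6.94% of all genes. A log2 change above 0 was found for 7 (49.6% of all genes), and the median was -0.01. With the GC trend removed the counts at this p were 0 above and 2 below, against 5.9% and 6.3% of all genes. Hspa1b, an inducible Hsp70 gene nearly identical to Hspa1a, so that reads may be split between them, measured 3.99 ± 0.562 FPKM in knockout and 3.06 ± 0.239 FPKM in wild-type kidneys (SD, n = 3 each; log2 change 0.29, or 0.15 with the GC trend removed; limma adjusted p = 0.265). Hspa1a averaged 1.32 ± 0.0998 FPKM in knockout and 1.28 ± 0.315 FPKM in wild-type kidneys. The chaperone gene Dnajb4 averaged 9.02 ± 0.599 FPKM in knockout and 12.7 ± 1.14 FPKM in wild-type kidneys (log2 change -0.45, limma adjusted p = 0.074), and passed the test without wild-type library 1 (log2 change -0.52, adjusted p = 0.0497). The part of dissection in the values of the members was not tested.

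**Figure D5:**
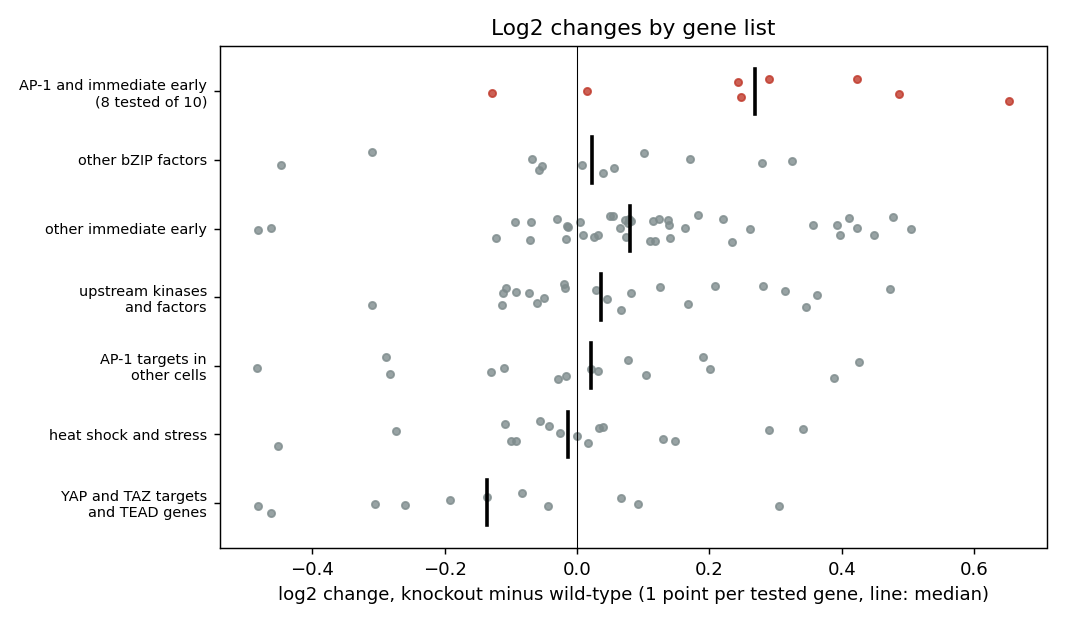
Log2 change (knockout minus wild-type, horizontal axis) of each tested gene in the set described here (red) and in 6 other lists (grey), with 1 point per gene and a vertical line at the list's median. The medians are 0.27 for the AP-1 and immediate early genes, 0.08 for other immediate early genes and -0.14 for 7 YAP and TAZ targets and 4 TEAD genes together, with the rest between -0.01 and 0.04.

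Cell-type markers moved with genotype beside these values. Of 8 stroma markers, 5 had lower knockout values with an unadjusted p under 0.05 (6.94% of all genes), and Col3a1 was called lower (log2 change -0.62, limma adjusted p = 0.0237). Pdgfra was the 1 stroma marker above 0 (log2 change 0.14), and Tcf21 (-0.04) and Meis1 (-0.15) were nearest to 0 among those below. Foxd1 itself, the gene that drives Cre, averaged 4.50 ± 0.617 FPKM in knockout and 7.64 ± 1.31 FPKM in wild-type kidneys (SD, n = 3 each). Its log2 change was -0.65 (limma adjusted p = 0.0886), and it counts among the 5 stroma markers above. The labels do not say whether the Cre allele takes the place of a Foxd1 copy, and the part of that in this value was not tested. Of 8 smooth muscle and pericyte markers, 5 likewise had lower knockout values, and Acta2 (log2 change -0.84, adjusted p = 0.023) and Tagln (log2 change -0.86, adjusted p = 0.0402) were called lower. Tagln lost its call without any 1 library, Acta2 without any 1 library but knockout library 3, and Col3a1 when wild-type library 2 or 1 knockout library of the 3 was left out. All 3 calls were also lost with a replicate block and with moderation without trend and robust options, those of Col3a1 and Tagln with quantile normalization, that of Col3a1 with libraries rescaled to equal sums, and that of Tagln with no filter on low values or with the GC trend removed. The 6 ureteric epithelium markers summed to 144 to 149 FPKM in knockout and 122 to 129 FPKM in wild-type libraries, and for 4 of them the log2 change was above 0 with an unadjusted p under 0.05 (9.14% of all genes). Podocyte markers summed to 93.6 to 107 FPKM in knockout and 81.2 to 91.9 FPKM in wild-type libraries. At an unadjusted p under 0.05, 2 of the 6 were higher and 1 was lower (9.14% and 6.94% of all genes). Macrophage markers summed to 26.9 to 28.1 FPKM in knockout and 30.0 to 30.6 FPKM in wild-type libraries. Of these 7 markers, 0 reached that p in either direction, and 3 had a log2 change above 0 (49.6% of all genes). With the GC trend removed, 3 macrophage markers were lower at that p (6.3% of all genes). Nephron progenitor, endothelium, red blood cell and mitochondrial lists had sums that overlapped between genotypes. No marker list had a gene at 0 in all libraries. The part of these shifts in the values of Jun, Ier2 and Fosl2 was not tested.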

How the data were processed

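Per the submitters' processing notes, the tools were bcl2fastq 2.17.1.14 and Salmon, with the builds GRCm38 and mm10. No version of Salmon, annotation release or filter is stated there. The authors deposited FPKM values for 24749 genes in 6 libraries. Each library had the same median log2 ratio (0.0038) to the geometric mean of the 6, so the deposited values already share a scale. No pair of the 15 pairs of libraries held identical values.

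Symbols were found for 24469 identifiers. Positions, overlaps and GC content come from GENCODE M21 on GRCm38. Since FPKM is a scaled unit, log values were fitted in place of a count model. Genes averaging 0.5 FPKM or more were tested with limma 3.58.1 in R 4.3.3 on log2(FPKM + 1), with genotype as the only term and trend and robust moderation, and called where the p adjusted by Benjamini-Hochberg was under 0.05 over 16899 genes. The steps were also run on simulated data with independent noise and no GC trend. Its pass mark covered only changes larger than those of the members, so it gives no assurance for changes of their size. Exact permutation tests used 20 assignments. Depth was approximated from the lowest step of FPKM on genes with 1 transcript of at least 2 kb.

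All 10 members are named. From each of 15 other lists the rule names up to 3 called genes, or, with fewer than 2 calls, its 2 lowest p-values. From the 9 marker and control lists the text names the called genes and Foxd1, and also Pdgfra, Tcf21 and Meis1, named after their values were seen. Members and lists were chosen with earlier results of these data known. The 14 alternative settings were other pseudocounts, filters, scalings, moderation, a replicate block and each library left out. Removal of the GC trend was added after seeing the data.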

Additional observations from a re-analysis of the deposited data

How the results depend on the processing

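Of 120 values of the 8 tested members under alternatives, 115 kept their direction and their side of the threshold. The exceptions were Jun, called without wild-type library 3 (log2 change 0.79), and Fos, whose change near 0 was -0.0215 with the GC trend removed and negative without knockout library 1 or 3 or wild-type library 1. The cause was not tested. Leaving out 1 library gave log2 changes between 0.52 and 0.79 for Jun and between -0.20 and 0.24 for Fos, 0 to 1 called members, 0 to 1 called genes in the pathway and target lists, and 52 to 147 called genes in the whole table, against 124 with all libraries. Fewer samples enter those fits. With moderation without trend and robust options 75 genes of the whole table were called. With the GC trend removed 1 gene of the pathway and target lists was called (Batf3).

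Pairing by replicate number was not seen: same-numbered libraries correlated at 0.02, -0.04 and 0.05 in their deviations from the group means. With 3 libraries a group this cannot show whether libraries shared a litter or a day of handling, which the labels do not give. A fit with the replicate number as a block called 32 genes of the whole table and 0 members. No best match by number was seen for every library, since knockout library 1 correlated most with wild-type library 2 (0.08). Depth limits Fosb and Fosl1 (0 to 5 fragments) and Fos (13 to 50 fragments).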
